A study of Mus musculus with 46 samples.

Results

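The regions described here are the CTCF CUT&RUN peaks of AgRP nuclei that have no counterpart in cerebellum. They were chosen as the peaks on chromosomes 1 to 19 and X of the AgRP CTCF list that shared no base with any peak of 4 cerebellum CTCF lists. This left 29976 of 50499 peaks, called AgRP-only peaks below, and 20523 peaks that overlapped a cerebellum peak, called shared peaks. Each entry of the list counts as a peak here, and several entries with separate summits can share the same region. The 50499 entries covered 48740 distinct regions and the AgRP-only entries 29860, so most such repeats were among the shared peaks. The study profiled AgRP neurons, the appetite-promoting neurons of the hypothalamic arcuate nucleus, in male mice under different states of energy balance. All ATAC-seq and RNA-seq samples used here came from NuTRAP AgRP mice of 6 to 11 weeks, in which Cre expressed from the Agrp gene (AgRP-IRES-Cre) switches on a GFP-tagged ribosomal subunit and a tagged nuclear envelope protein, so that any cell with a history of Cre activity is tagged. Each library was a pool of 4 mice. The states were fed (ad libitum, PBS vehicle; 2 ATAC-seq and 3 RNA-seq libraries), fasted (overnight, PBS vehicle; 2 and 4 libraries) and leptin (fasted overnight, then leptin; 2 and 4 libraries). GFP-sorted nuclei (AgRP-positive, 2 ATAC-seq libraries) were also set against the GFP-negative nuclei of the sort (AgRP-negative, 2 libraries), both taken from the same pools. The CTCF libraries came from fed, untreated male mice, with 1 library for AgRP nuclei (labelled 3K) and 1 each for 4 inputs of unsorted nuclei of whole cerebellum (labelled 1K, 10K, 50K and 100K, although the name of the 100K list gives a larger number). The AgRP nuclei for CTCF also came from mice of 6 to 11 weeks. CTCF binding itself has no replicate check and was not measured in fasted or leptin-treated mice.

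CTCF is a zinc finger protein that binds a long, GC-rich motif, stops the cohesin ring as it extrudes loops of chromatin and thereby marks loop anchors and domain borders. Many of its sites are occupied in every tissue, and a smaller share differ between cell types, often at distal regulatory elements. CUT&RUN maps binding by tethering a nuclease to the antibody, and ATAC-seq maps open chromatin by transposase insertion.

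The sequences below come from windows around the summits of AgRP-only peaks, in RefSeq GRCm38.p6 (mm10), read 5′ to 3′ on the strand of the motif. Each peak is named by the gene with the nearest start site, or by the list gene near which it was looked up, without implying that it acts on that gene. The first set holds AgRP-only peaks with the core of the CTCF motif, searched as CCANNAGNNGGC on both strands and printed in capitals, inside an AgRP ATAC peak. These were 3 of the 6 motif-bearing peaks of highest enrichment (chr11:33928828-33928919, chr13:13868090-13868181 and chr2:117541641-117541732) and the peak at the promoter of Gad1 (chr2:70561159-70561250), which encodes a GABA-synthesizing enzyme. The 3 had 11.55 to 11.81-fold enrichment. The rest of the 6, near Olfr1507 and Rspo4, were stronger (12.01 to 16.67-fold) and are not printed.
Kcnmb1: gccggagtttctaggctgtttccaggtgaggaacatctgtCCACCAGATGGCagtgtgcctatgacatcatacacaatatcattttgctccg
Gng4: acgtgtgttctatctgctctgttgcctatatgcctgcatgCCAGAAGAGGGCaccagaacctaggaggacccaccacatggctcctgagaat
Rasgrp1: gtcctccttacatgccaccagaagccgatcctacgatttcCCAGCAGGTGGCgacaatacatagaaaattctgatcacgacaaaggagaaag
Gad1: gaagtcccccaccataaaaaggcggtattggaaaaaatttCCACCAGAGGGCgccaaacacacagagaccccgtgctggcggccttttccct

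The second set holds the motif-bearing AgRP-only peaks of highest enrichment outside ATAC peaks, near Cpne8 (chr15:90841630-90841721), Igsf11 (chr16:39056175-39056266) and Prr23a1 (chr9:98809665-98809756). The capitals again mark the CTCF core.
Cpne8: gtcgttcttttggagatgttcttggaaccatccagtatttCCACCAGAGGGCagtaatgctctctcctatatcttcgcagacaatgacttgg
Igsf11: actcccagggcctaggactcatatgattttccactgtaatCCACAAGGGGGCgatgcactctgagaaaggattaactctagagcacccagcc
Prr23a1: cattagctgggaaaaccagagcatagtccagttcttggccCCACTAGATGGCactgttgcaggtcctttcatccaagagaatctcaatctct

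The third set holds AgRP-only peaks that overlap ATAC peaks and whose window carried an AP-1 motif, searched as TGANTCA on both strands and printed in capitals. Accessibility of the peaks with and without it is compared below. The window reached 150 bases to each side of the summit, and a peak is said below to carry or bear a motif found in its window. Near Vim and Gpr158 the printed motif lay outside the CTCF peak, and near Vill outside the ATAC peak. AP-1 is the dimer of FOS and JUN proteins that neurons induce on activation. The windows lie near Acvr1c (chr2:58365002-58365088), Stag1 (chr9:100606187-100606273), Vim (chr2:13558654-13558740), Slc30a5 (chr13:101190220-101190306), Gpr158 (chr2:21649569-21649655) and Vill (chr9:119047069-119047155).
Acvr1c: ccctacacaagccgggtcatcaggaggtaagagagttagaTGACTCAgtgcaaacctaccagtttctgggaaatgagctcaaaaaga
Stag1: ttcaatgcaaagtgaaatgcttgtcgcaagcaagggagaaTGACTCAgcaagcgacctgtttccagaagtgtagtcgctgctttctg
Vim: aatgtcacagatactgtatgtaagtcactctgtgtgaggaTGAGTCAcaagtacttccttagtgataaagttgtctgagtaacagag
Slc30a5: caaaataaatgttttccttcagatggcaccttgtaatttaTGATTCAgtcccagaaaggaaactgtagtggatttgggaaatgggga
Gpr158: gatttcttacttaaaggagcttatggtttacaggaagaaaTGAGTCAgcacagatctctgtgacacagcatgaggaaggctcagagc
Vill: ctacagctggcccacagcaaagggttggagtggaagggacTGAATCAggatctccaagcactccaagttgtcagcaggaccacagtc

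AgRP-only CTCF peaks were mostly weak and narrow. Their fold enrichment over the peak caller's background had a median of 2.51, with quartiles of 2.51 and 3.35 and a range of 2.11 to 87.1, and 12430 of them (41.5%) sat at the value 2.51 itself. The shared peaks had a median of 6.24. The median −log10 q was 0.371 in AgRP-only and 5.72 in shared peaks, and 11446 AgRP-only peaks (38.2%) had q under 0.05 against 92.0% of the shared peaks. Median width was 125 bases (quartiles 100 and 175) against 260 bases (173 and 352). The number of AgRP-only peaks depended little on which cerebellum list was left out (30420 to 30700), and 27569 had no cerebellum peak within 1 kb. The cerebellum lists overlapped 11.7% (1K) and 36.1% to 36.2% (10K to 100K) of the AgRP peaks. The lists came from different numbers of nuclei, and read depth was not used here, so absence from a cerebellum list cannot be told apart from a peak that fell below the caller's limit there.

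Of the 29976 AgRP-only peaks, 8446 overlapped an ATAC peak of AgRP nuclei (28.2%; exact binomial 95% interval 27.7% to 28.7%). Of the shared peaks, 15654 did (76.3%; 75.7% to 76.9%). The intervals here and below cover counting error over regions of 1 list only. The overlap rose with enrichment and then fell. It was 12.9% in the 16518 AgRP-only peaks under 2.6-fold, 64.9% between 3.4 and 4.5-fold, 67.4% between 4.5 and 6-fold and 39.6% in the 182 peaks of 9-fold or more. Shared peaks of the same enrichment overlapped ATAC peaks more often in every bin, from 47.2% under 2.6-fold to 81.3% at 9-fold or more. Of the AgRP-only peaks with q under 0.05, 46.3% overlapped an ATAC peak.

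**Figure D1:**
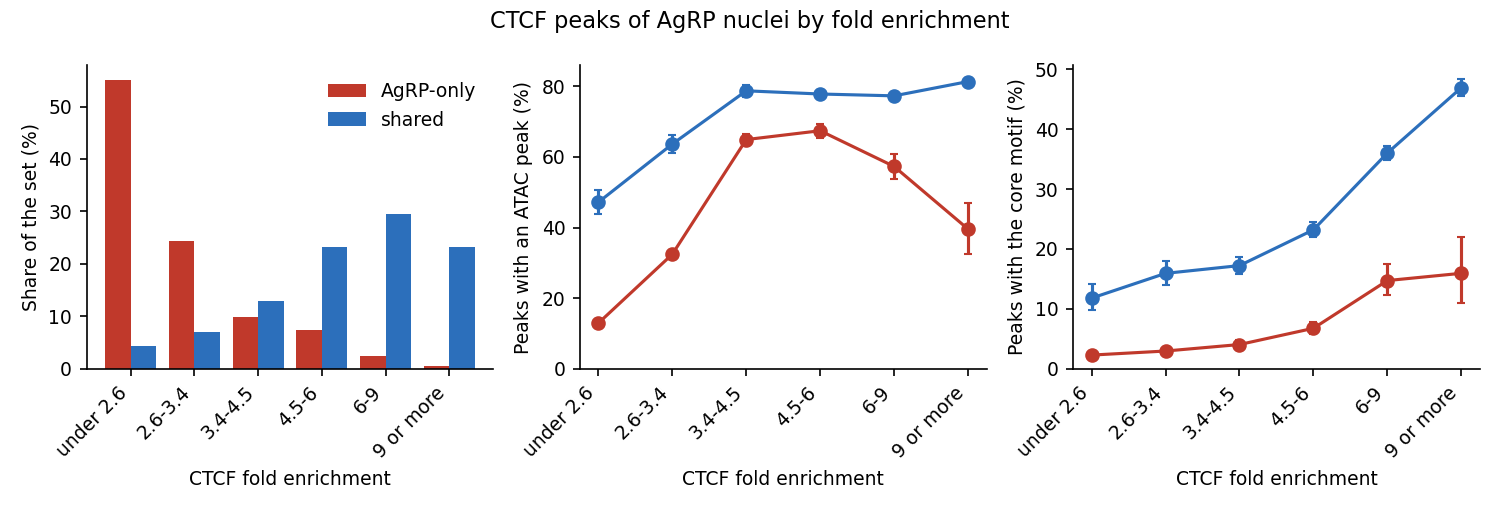
The left panel gives the share (%) of AgRP-only and shared CTCF peaks in each bin of CTCF fold enrichment, the middle panel the share of each bin that overlaps an ATAC peak of AgRP nuclei, and the right panel the share with the CTCF core motif within 150 bases of the summit; error bars are exact binomial 95% intervals. AgRP-only peaks crowd the lowest bin, and lie below the shared peaks in every bin of the other panels.

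The AgRP-only peaks of highest enrichment were largely outside open chromatin. The 10 highest lay between 23.4 and 87.1-fold, led by chr6:142937732-142937857, nearest to the start of St8sia1, a sialyltransferase gene. Only 1 of them, the 23.7-fold peak at chr1:113904112-113904288 nearest to the start of Cntnap5a, overlapped an ATAC peak. None of the 10 windows carried the CTCF core or the AP-1 motif, and 35.7% to 90.7% of their bases were soft-masked as repeats. Over all AgRP-only peaks, windows with more than 50% repeat-masked bases made up 34.0% of the peaks outside ATAC peaks and 3.58% of those inside, against 7.38% of all shared peaks. The part of repeats in these peaks was not tested.

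The CTCF core motif was rare in AgRP-only peaks. It lay within 150 bases of the summit in 1003 of them (3.35%; 3.15% to 3.56%) against 6306 shared peaks (30.7%; 30.1% to 31.4%). The same 300-base windows held it in 2.42% of ATAC peaks with no AgRP CTCF peak and in 1.57% of 853083 windows spread over the genome. Where it was present, its median distance to the summit was 39 bases in AgRP-only peaks (564, 56.2%, within 50 bases) and 8 bases in shared peaks (86.0% within 50 bases). The share with the motif rose with enrichment, from 2.28% under 2.6-fold to 15.9% at 9-fold or more. Inside and outside ATAC peaks the share was alike, 3.37% (3.00% to 3.78%) and 3.33% (3.10% to 3.58%). A match to these letters is a description and not a binding site, and a missing match says only that the letters are not in the window.

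AP-1 letters set the AgRP-only peaks inside open chromatin apart from those outside. The motif was present in 2011 (23.8%) of the AgRP-only peaks inside ATAC peaks, 7.38% of those outside, 7.53% of shared peaks inside ATAC peaks and 34.9% of ATAC peaks with no CTCF peak, against 8.84% of genome windows. A STAT motif (TTCNNNGAA, bound by the transcription factors downstream of the leptin receptor) was present in 14.6% of AgRP-only peaks inside ATAC peaks, 12.8% of ATAC peaks with no CTCF peak and 11.2% of genome windows. An IRF motif (GAAANNGAAA) was present in 4.75%, 4.22% and 4.96% of the same sets.

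Most AgRP-only peaks were distal. Introns held 15314 of them (51.1%), intergenic sequence 12573 (41.9%), promoters (within 1 kb of a start site) 1232 (4.11%), untranslated exons 424 and coding exons 302. Promoters held 29.6% of the shared peaks. The median distance to the nearest protein-coding start site was 51.4 kb for AgRP-only and 13.6 kb for shared peaks, and median GC content was 41.3% and 49.7%. On chromosome X, 66.5% of the AgRP CTCF peaks were AgRP-only, the highest share of any chromosome, but at 5.48 per Mb they were less dense there than on the autosomes, where the density ran from 10.2 to 12.6 per Mb. The mice were male, and the density was not adjusted for the lower copy number of X.

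Of the AgRP-only peaks, 23.1% overlapped an ATAC peak of the sorted comparison, and more of these ATAC peaks were higher than lower in AgRP nuclei. In this comparison, 6675 ATAC peaks held an AgRP-only CTCF peak and 6655 passed the filter of a mean over 1 CPM (counts scaled to equal library totals). Their median accessibility was 4.19 and 4.26 CPM in the AgRP-negative libraries and 9.32 and 9.57 CPM in the AgRP-positive libraries. Of these peaks, 3666 were higher in AgRP-positive nuclei (55.1%), where 24.1% of all 66494 ATAC peaks tested were higher, and 395 were lower (5.94%), where 15.3% of all were (edgeR quasi-likelihood test, Benjamini-Hochberg adjusted p, written FDR, under 0.05, and a log2 fold change beyond 0.5 in either direction). The median log2 fold change was 1.00, against 0.00 over all peaks. Before the filter, the median of the mean level was 7.33 CPM in the AgRP-only set and 3.90 CPM in ATAC peaks with no CTCF peak. A change is called more readily at higher counts, and the shares called, here and below, were not matched for level. ATAC peaks with shared CTCF peaks only went the other way, with 313 higher (2.69%), 1591 lower (13.7%) and a median of −0.26, and ATAC peaks with no CTCF peak had a median of 0.09. Absence from cerebellum, by which the CTCF sets were divided, can itself favour regions selective for AgRP nuclei. The contrast between the sets is therefore not independent of that choice. The lower count of the AgRP-only set fell to 238 without the first AgRP-negative library. Scaling by library size alone moved the median of all peaks by 0.163 and that of the AgRP-only set to 1.16.

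**Figure D2:**
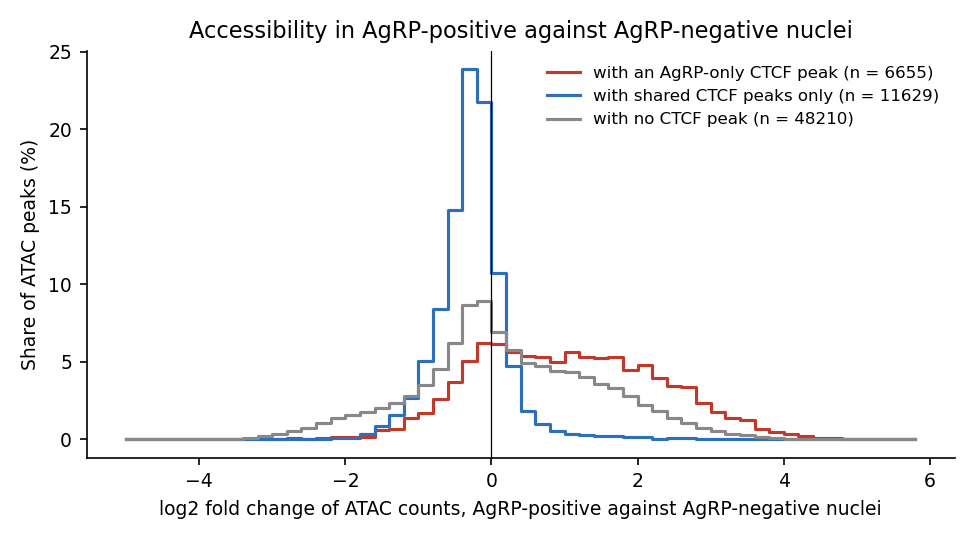
Distribution of the log2 fold change of ATAC counts in AgRP-positive against AgRP-negative nuclei, from a pair of libraries per sort, over ATAC peaks with an AgRP-only CTCF peak, with shared CTCF peaks only and with no CTCF peak of the AgRP list; the y axis is the share (%) of the ATAC peaks of each set. The AgRP-only curve extends to the right, with a median of 1.00, whereas the shared curve is narrow with a median of −0.26.

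The motif classes differed in this comparison. Of the 1562 tested ATAC peaks whose AgRP-only CTCF peak carried AP-1 letters, 74.3% were higher in AgRP-positive nuclei and 1.22% lower, and of the other 5093, 49.2% and 7.38%. Of the 183 that carried the CTCF core, 30.1% were higher and 8.74% lower, and of the 662 at promoters, 18.7% and 8.61%. ATAC peaks with no CTCF peak were not divided by motif in this comparison. Among the 5 largest increases was an intergenic peak 324.3 kb from the start of Pid1, a regulator of insulin and lipoprotein receptor signalling (CTCF peak chr1:83959704-83960159), which had 1.97 and 1.07 CPM in AgRP-negative and 51.6 and 49.1 CPM in AgRP-positive libraries. The fold change was 5.05 on the log2 scale (SE 0.24, edgeR FDR 1.4e-95). The other increases lay near Try4, Tmco5, Nfe2 and Fam98a (log2 4.93 to 5.49), and the largest decreases near Vill, Ctdp1, Pex2, Impg1 and Bmpr1b (log2 −3.11 to −2.66), of which Impg1 lost its call without the first AgRP-negative library and Bmpr1b without the second AgRP-positive library.

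Most genes of the AgRP neuron list had AgRP-only CTCF peaks close by, and some of these peaks lay in open chromatin. Of 16 AgRP neuron genes, 15 had an AgRP-only peak within 50 kb of a start site, against 67.4% of all protein-coding genes. Such nearness was not particular to this list, as all 19 genes of the CTCF and cohesin list and 15 of 20 glial and tanycyte markers also had one. The 48 AgRP-only peaks near these genes included 23 in ATAC peaks and 7 with the CTCF core. Of the 16 ATAC peaks tested that held them, 15 were higher in AgRP-positive nuclei and 0 lower (median log2 2.02), against 55.1% higher over all AgRP-only peaks. This list was assembled with marker results of these samples known and is not independent evidence. At the Agrp promoter, 33 bases from the start site of the melanocortin receptor antagonist itself, a CTCF peak of 2.81-fold (chr8:105568218-105568377) lay in an ATAC peak with 7.02 and 8.88 CPM in AgRP-negative and 83.4 and 83.4 CPM in AgRP-positive libraries. The log2 fold change was 3.39 (edgeR FDR 3.3e-91). The CTCF peak itself was weak, with a −log10 q of 0.429 and no CTCF core in its window. A 5.51-fold CTCF peak 14.8 kb from Npy, which encodes the orexigenic neuropeptide Y (chr6:49807790-49808360), lay in an ATAC peak with 1.48 and 4.03 CPM in negative and 40.0 and 44.2 CPM in positive libraries (log2 3.92, edgeR FDR 1.1e-65). The 4.39-fold peak 16.1 kb from a start site of Lepr, the leptin receptor gene (chr4:101701265-101701937), had 5.91 and 4.86 CPM against 51.1 and 51.4 CPM (log2 3.25, edgeR FDR 2.0e-63).

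Smaller differences were found at other genes of the neuron. The AP-1 bearing peak near Acvr1c, an activin-type receptor gene, rose by 3.09 on the log2 scale, the promoter of Serpina3n, a serine protease inhibitor gene, by 1.43, and the promoter of Socs3, the feedback inhibitor of leptin receptor signalling, by 0.73. At the Gad1 promoter, whose 7.40-fold peak carried the CTCF core shown above, accessibility was 3.57 and 7.22 CPM in AgRP-negative and 9.68 and 10.2 CPM in AgRP-positive libraries. That call (log2 0.87, edgeR FDR 0.0097) was lost with DESeq2, without the first AgRP-negative and without the second AgRP-positive library.

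Markers of other cells were read from the same peaks. Of 22 hypothalamic transcription factor genes, 14 had an AgRP-only peak within 50 kb, and of the 4 ATAC peaks tested near them, 2 were higher and 0 lower. The peak near Six6, a homeobox gene (chr12:72957410-72957856), had 1.97 and 1.54 CPM in AgRP-negative and 11.2 and 13.7 CPM in AgRP-positive libraries (log2 2.83). It lay 17.7 kb from Six6, and the nearest protein-coding start site was that of 4930447C04Rik. Of 20 glial and tanycyte markers, 15 had an AgRP-only peak within 50 kb, and of the 8 ATAC peaks tested 3 were higher and 1 lower. Of 7 POMC neuron genes 5, and of 20 cerebellar genes 8, had an AgRP-only peak within 50 kb. For the POMC list 2 of 3 ATAC peaks tested were higher, and the 14 AgRP-only peaks near cerebellar genes overlapped 0 ATAC peaks. Over all tested ATAC peaks with an AgRP-only CTCF peak, 55.1% were higher and 5.94% lower, and over all ATAC peaks tested, 24.1% and 15.3%. Differences of these lists from those shares were not tested. In the AgRP RNA libraries all 7 AgRP markers exceeded 1 CPM (summed level 1754 to 6820 CPM), as did all 5 astrocyte markers (399 to 902 CPM) and all 6 oligodendrocyte markers (433 to 802 CPM), so markers of other cells were measured in these libraries. At promoters, 7 of 9 tested ATAC peaks of AgRP markers were higher in AgRP-positive nuclei and 1 lower, while 3 of 6 astrocyte, 3 of 4 oligodendrocyte and 3 of 6 cerebellar peaks were lower and 0 of these were higher. Of 3 tanycyte peaks, 1 was higher and 0 were lower. The part of other nuclei in the AgRP-only CTCF list was not tested. In pooled material, fewer cells of a type and less signal per cell cannot be told apart.

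With all libraries, more of these regions closed than opened with fasting, an order that rested on the second fasted library. In the table of the 3 states, 8171 ATAC peaks held an AgRP-only CTCF peak and 7852 passed the filter. Their median level was 9.90 and 9.21 CPM in the fed, 8.88 and 8.09 CPM in the fasted and 8.02 and 7.39 CPM in the leptin libraries, so the groups did not overlap. In fasted against fed mice, 872 were opened (11.1%), where 19.0% of all 102198 ATAC peaks tested were opened, and 1394 were closed (17.8%), where 8.35% of all were closed (the same test and thresholds). The median log2 fold change was −0.22, against −0.04 over all peaks. The shares called were not matched for level. Before the filter, the median of the mean level was 9.13 CPM in the AgRP-only set and 2.44 CPM in ATAC peaks with no CTCF peak. ATAC peaks with shared CTCF peaks only had 160 opened (1.18%), 679 closed (5.01%) and a median of −0.30, and those with no CTCF peak had 22.7% opened and a median of 0.14. The counts rested on single libraries. The opened count was 532 without the first fasted library, and the closed count was 657 without the second fasted and 801 without the first fed library, which at 8263234 counts in peaks was the shallowest of the 6 (the others held 14324992 to 17190963). Without the second fasted library the order turned, with 680 opened and 657 closed, whereas without any other single library more of these regions closed than opened.

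**Figure D3:**
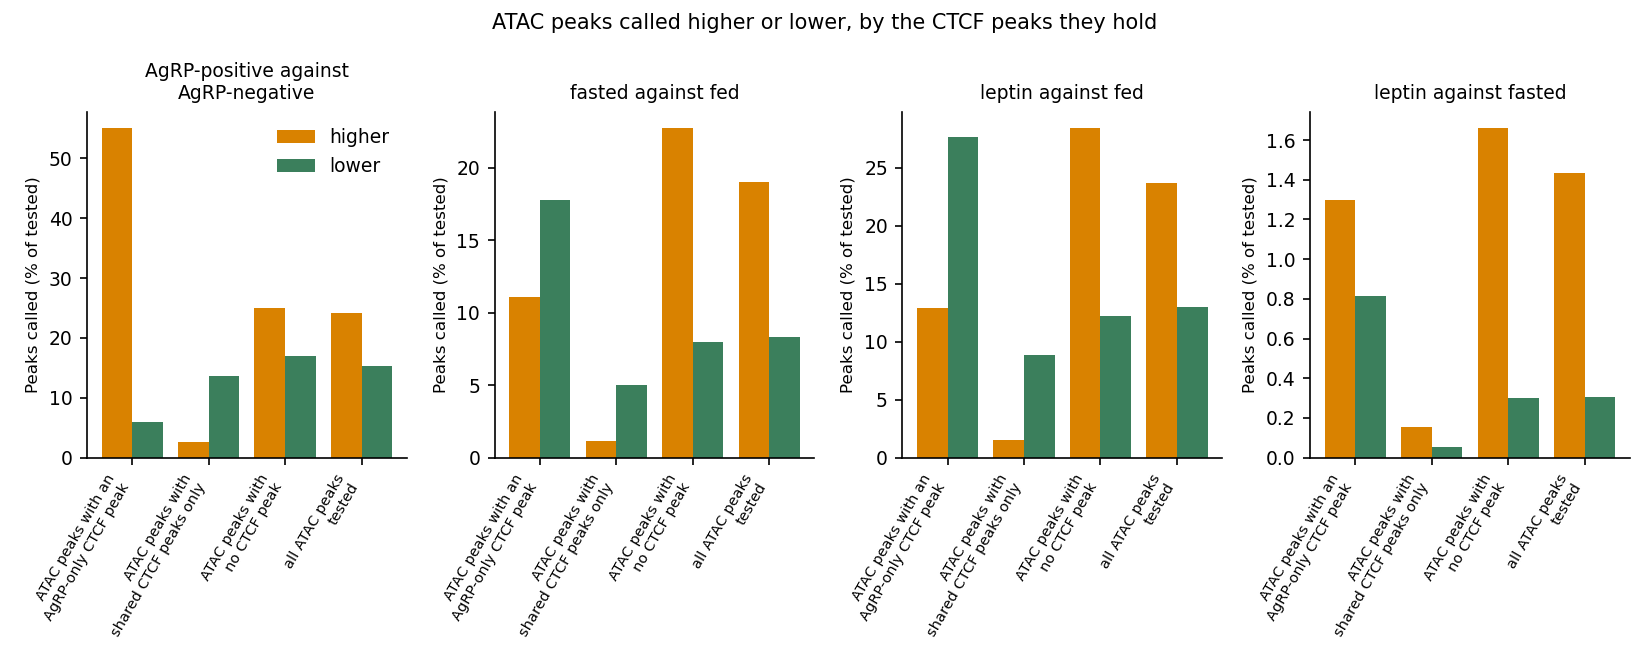
Share (%) of tested ATAC peaks called higher or lower (edgeR quasi-likelihood test) in each of 4 comparisons, for ATAC peaks with an AgRP-only CTCF peak, with shared CTCF peaks only, with no CTCF peak of the AgRP list, and for all tested; each panel has its own y axis from 0. The AgRP-only set is mostly higher in AgRP-positive nuclei (55.1%) and more often lower than higher in fasted against fed (17.8% and 11.1%) and in leptin against fed (27.6% and 12.9%).

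AP-1 letters split the response to fasting. Of the 1934 tested ATAC peaks whose AgRP-only CTCF peak carried the motif, 555 were opened (28.7%) and 83 closed (4.29%), with a median log2 fold change of 0.37. Of the 5918 without it, 317 were opened (5.36%) and 1311 closed (22.2%), with a median of −0.36. ATAC peaks with no CTCF peak were divided in the same way by the motif, searched here around the middle of the ATAC peak, with 44.4% opened and 1.15% closed among 29818 that carried it (median 1.06) and 10.1% and 12.0% among 50881 that did not (median −0.23). Of 264 ATAC peaks whose AgRP-only CTCF peak carried the CTCF core, 21 were opened and 27 closed, and of 715 at promoters, 20 and 50.

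**Figure D4:**
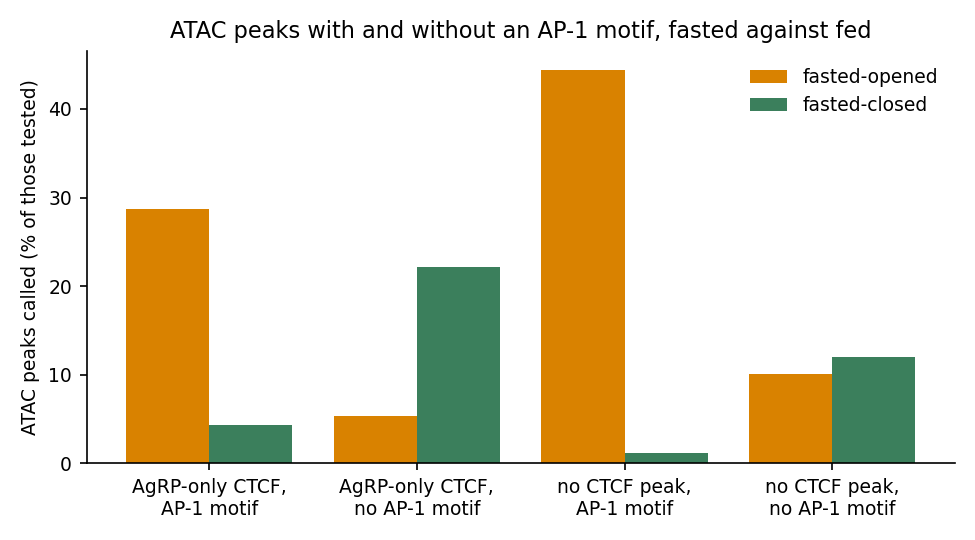
Share (%) of tested ATAC peaks called opened or closed in fasted against fed mice, for ATAC peaks with an AgRP-only CTCF peak and with no CTCF peak, each with and without TGANTCA within 150 bases of the CTCF summit or of the middle of the ATAC peak. In both sets more peaks with the motif are opened (28.7% and 44.4%) than closed, and more AgRP-only peaks without it are closed (22.2%) than opened; most peaks with an AgRP-only CTCF peak are not called.

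Among the regions with the largest opening was the ATAC peak at an intronic AgRP-only CTCF peak 16.4 kb from the start of Tnfaip8l3, a phosphoinositide transfer protein gene (chr9:54051952-54052068). It had 0.611 and 0.290 CPM in fed, 6.45 and 7.27 CPM in fasted and 7.74 and 4.61 CPM in leptin libraries. Both fasted libraries were above both fed libraries, as the choice of the named regions required, and the fold change was 4.00 on the log2 scale (SE 0.50, edgeR FDR 3.7e-05). At 4.91 kb from the start of Cab39l, a homologue of a subunit of the LKB1 kinase complex, the intronic 7.58-fold CTCF peak chr14:59445733-59446057 lay in an ATAC peak with 1.83 and 0.943 CPM in fed, 15.3 and 11.6 CPM in fasted and 9.41 and 4.11 CPM in leptin libraries (log2 3.33, SE 0.46, edgeR FDR 6.9e-05). The others lay near Tmprss11a and B4galt1 (log2 3.33 and 3.14) and near Rprm, where the fed libraries held only 0.122 and 0.0725 CPM. The CTCF peaks near Tnfaip8l3, Tmprss11a and Rprm were weak, at 2.45 to 2.51-fold and a −log10 q of 0.371.

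Among the regions with the largest closing, the ATAC peak at the AgRP-only CTCF peak chr1:115678151-115678293, 6.51 kb from the start of Cntnap5a, a contactin-associated protein gene, had 7.94 and 4.13 CPM in fed, 0.192 and 0.376 CPM in fasted and 0.488 and 0.167 CPM in leptin libraries. The fed libraries stood above all others, and the fasted-against-fed change was −4.36 on the log2 scale (SE 0.60, edgeR FDR 7.2e-05). Near Gm6685 (chr11:27479583-27479920) the levels were 11.9 and 7.91 CPM in fed, 0.830 and 0.564 CPM in fasted and 0.488 and 0.722 CPM in leptin libraries (log2 −3.81, SE 0.44, edgeR FDR 2.3e-05). The others lay near Cadm2, a synaptic adhesion gene, Agbl1 and D1Ertd622e (log2 −4.04 to −3.92). All 10 of these calls were kept under every alternative that gave a value.

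Genes of the fixed lists showed changes in both directions. Near Lepr, accessibility was 44.5 and 41.5 CPM in fed, 27.7 and 15.6 CPM in fasted and 28.8 and 22.7 CPM in leptin libraries. Both fasted libraries lay below both fed libraries (edgeR FDR 0.0042), a call lost without the second fasted library (edgeR FDR 0.095). Near Six6 it was 17.4 and 14.1 CPM in fed, 6.52 and 5.83 CPM in fasted and 5.85 and 7.56 CPM in leptin libraries (log2 −1.36, edgeR FDR 0.0028). The AP-1 bearing peak near Stag1, a cohesin subunit gene (chr9:100606067-100606350), opened from 5.87 and 8.49 CPM to 18.8 and 18.1 CPM, with 16.3 and 16.1 CPM after leptin (log2 1.33, edgeR FDR 0.0016). The AP-1 bearing peak near Vim, an intermediate filament gene (chr2:13558713-13558823), opened from 7.58 and 9.65 CPM to 24.0 and 21.3 CPM, with 20.1 and 22.5 CPM after leptin (log2 1.37, edgeR FDR 0.00062). The peaks near Six6, Stag1 and Vim lay 17.7, 37.3 and 15.2 kb from these genes. The nearest protein-coding start sites were those of 4930447C04Rik, Slc35g2 and Trdmt1. At the Agrp promoter the levels were 114 and 104 CPM in fed, 143 and 121 CPM in fasted and 134 and 110 CPM in leptin libraries, which did not pass the test for fasting (log2 0.26, edgeR FDR 0.12). The peaks near Npy (log2 −0.12) and at the Socs3 promoter (log2 −0.02) did not pass either. Over the AgRP neuron list, 3 of 18 tested ATAC peaks with an AgRP-only CTCF peak were opened and 1 closed by fasting (median log2 0.02). Over all tested ATAC peaks with an AgRP-only CTCF peak, 11.1% were opened and 17.8% closed, and over all ATAC peaks tested, 19.0% and 8.35%. A difference of the list from these shares was not tested.

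Few of these regions were called with leptin after fasting, and the count depended on single libraries. In leptin against fasted mice, 102 were opened (1.30%), where 1.43% of all ATAC peaks tested were opened, and 64 were closed (0.815%), where 0.306% of all were closed. The median log2 fold change was −0.13, against −0.02 over all peaks, and 1309 had an unadjusted p under 0.05. The opened count was 4 without the first and 9 without the second leptin library, 24 and 57 without the first and second fasted library, and 183 and 186 without the first and second fed library. The closed count was 0 without the first fasted or either leptin library, 134 without the second fasted library, and 219 and 223 without the first and second fed library. Without the CPM filter 112 were closed.

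The largest opening with leptin was in the ATAC peak at the 4.56-fold CTCF peak chr5:46139395-46139580, 281.9 kb from Lcorl. It had 14.7 and 13.5 CPM in fed, 3.90 and 4.89 CPM in fasted and 36.1 and 36.5 CPM in leptin libraries. Every state was separate from the others, and the change with leptin was 3.05 on the log2 scale (SE 0.25, edgeR FDR 3.3e-05), kept under every alternative. Near Dap, a regulator of autophagy, the levels were 10.3 and 6.09 CPM in fed, 3.19 and 6.71 CPM in fasted and 36.5 and 32.3 CPM in leptin libraries (log2 2.80, edgeR FDR 0.00053). Near Fam216b they were 5.38 and 4.93, 2.68 and 4.39, and 22.8 and 20.4 CPM (log2 2.61, edgeR FDR 0.00056). The AP-1 bearing peaks near Slc30a5, a zinc transporter gene, and Gpr158, an orphan receptor gene (log2 2.81 and 2.48), lost their calls without the first fasted or either leptin library. Their CTCF peaks were weak, at 2.51-fold and a −log10 q of 0.371.

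The regions that closed most with leptin lay near Fmn1, Slitrk1, Ice1, Xpr1 and Stxbp6 (log2 −2.65 to −2.09). Near Stxbp6, whose product binds SNARE proteins, the levels were 31.5 and 23.9 CPM in fed, 25.5 and 11.0 CPM in fasted and 5.23 and 3.39 CPM in leptin libraries. All 5 lost their calls without the first fasted or either leptin library. None of the ATAC peaks with an AgRP-only CTCF peak near the genes of the lists was called in leptin against fasted mice; over the AgRP neuron list the median log2 fold change was −0.06 for 18 tested.

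Leptin-treated mice, which had also been fasted, were set against fed mice as well, a comparison sharing its fed libraries with fasted against fed and its leptin libraries with leptin against fasted. Of the 7852 ATAC peaks, 1014 were opened (12.9%), where 23.7% of all were opened, and 2169 were closed (27.6%), where 13.0% of all were closed, with a median log2 fold change of −0.33. With AP-1 letters 32.3% were opened and 8.22% closed, and without them 6.59% and 34.0%. This split was not particular to the AgRP-only set. Of ATAC peaks with no CTCF peak, 54.4% were opened and 1.84% closed with the motif, and 13.2% and 18.3% without it. The opened count was 548 without the first leptin library, and the closed count 1231 and 1151 without the first and second leptin library. The largest increases lay near Rprm, Tnfaip8l3, Tmprss11a, B4galt1 and Amz1, and the largest decreases near Kcnab1, Lrrtm3, Nudt12, Cxadr and Pum3. Near Nudt12, which encodes a NADH-hydrolysing enzyme (chr17:59618990-59619140), the levels were 10.0 and 7.98 CPM in fed, 0.575 and 0.815 CPM in fasted and 0.349 and 0.445 CPM in leptin libraries (leptin against fed log2 −4.46, edgeR FDR 5.7e-06). Near Amz1, a metallopeptidase gene, they were 0.611 and 1.09 CPM, 2.49 and 3.45 CPM, and 10.2 and 8.17 CPM (log2 3.35, edgeR FDR 2.1e-05), so that the leptin libraries stood above the fasted ones. The CTCF peak near Amz1 was weak, at 2.47-fold and a −log10 q of 0.371.

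**Figure D5:**
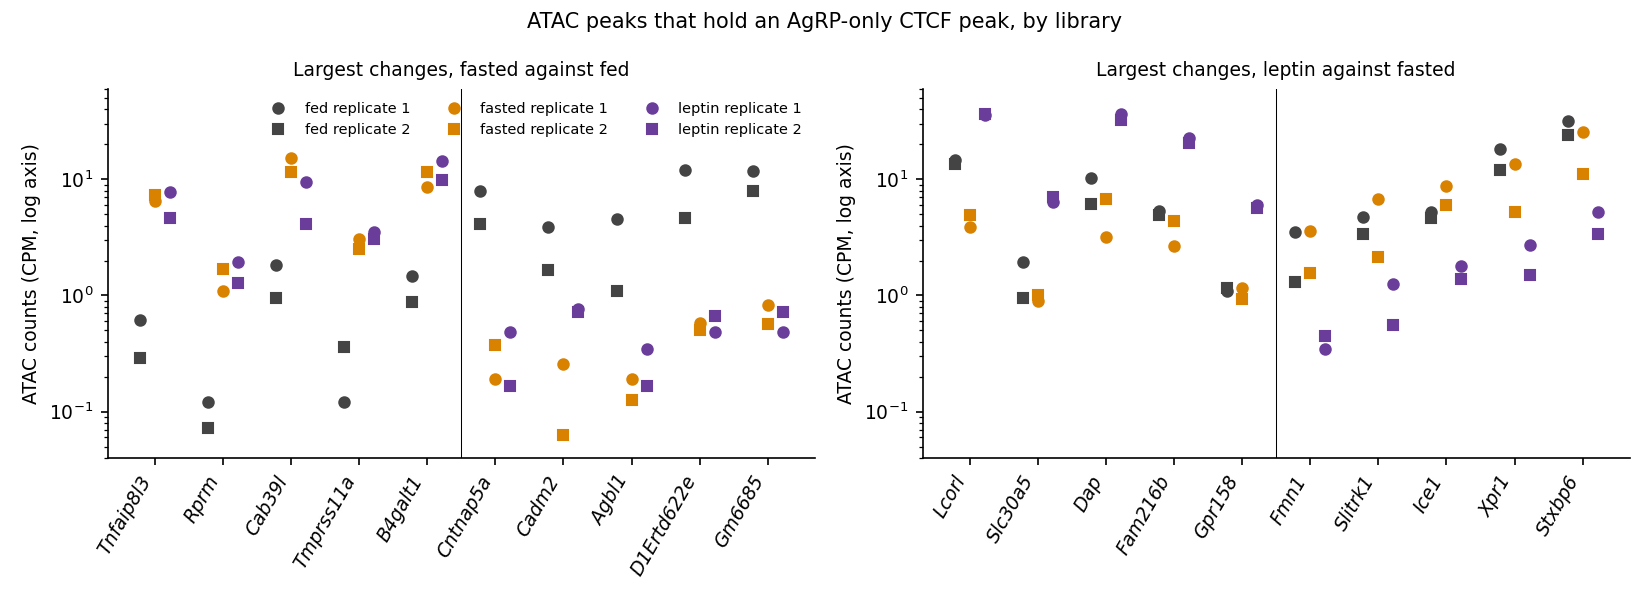
ATAC level in CPM (log axis) of each fed, fasted and leptin library for the AgRP-only regions with the largest changes in fasted against fed (left panel) and leptin against fasted (right panel); within a panel the vertical line parts increases from decreases, circles and squares are replicates 1 and 2, and names are the genes with the nearest start site. The regions were chosen among called ones whose libraries do not overlap between the groups compared; near Lcorl the leptin libraries (36.1 and 36.5 CPM) also lie above the fed libraries (14.7 and 13.5 CPM).

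RNA of the genes with an AgRP-only CTCF peak that reached within 1 kb of a start site was then compared. There were 1346 such genes, of which 966 were in the count table and 721 passed the filter of a mean over 1 CPM (25581041 to 54511107 counts per library). In fasted against fed mice, 29 were higher (4.02%), where 2.81% of all 13399 genes tested were higher, and 15 were lower (2.08%), where 1.08% of all were lower. Scaling by library size alone gave 13 higher and 13 lower. With the replicate number as a block, which pairs these libraries, 27 were lower. The higher count was 17 without the third fasted library, and the lower count 7 without the first fed library, 9 without the third and 25 without the fourth fasted library.

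The genes that rose most with fasting were Fgf7, Adgrg2, Gprc5a, Ppef1 and Fut4 (log2 1.75 to 2.91). The promoter CTCF peaks of Adgrg2, Ppef1 and Fut4 were weak, at 2.43 to 2.51-fold and a −log10 q of 0.371. That of Ppef1 overlapped no ATAC peak. Those of Fgf7 and Gprc5a had 3.7 and 3.35-fold, with a −log10 q of 1.50 and 1.37. Fgf7, a fibroblast growth factor gene whose promoter CTCF peak carried the CTCF core (chr2:126034376-126034723), had 0.210 to 1.03 CPM (median 0.708) in fed, 2.90, 5.07, 5.83 and 6.53 CPM in fasted and 0.398, 0.797, 0.945 and 1.09 CPM in leptin libraries. The fasted libraries lay above all others, and the change was 2.91 on the log2 scale (SE 0.45, edgeR FDR 0.0045) with fasting and −2.63 (SE 0.39, edgeR FDR 0.0051) with leptin. Its promoter ATAC peak rose by 1.02 on the log2 scale with fasting (edgeR FDR 0.0043), and its value for leptin was −0.85 (edgeR FDR 0.077). Adgrg2, an adhesion G protein-coupled receptor gene, had 9.44, 13.2 and 15.7 CPM in fed, 51.6, 62.8, 83.2 and 85.1 CPM in fasted and 37.0, 60.8, 67.9 and 71.7 CPM in leptin libraries (log2 2.47, SE 0.26, edgeR FDR 0.0011).

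The genes that fell most with fasting were Socs3, Vit, Pik3r5, Npffr2 and Prr33 (log2 −1.98 to −0.96). The CTCF peaks of Vit and Pik3r5 were weak, at 2.51 and 2.49-fold and a −log10 q of 0.371, and overlapped no ATAC peak. Those of Npffr2 and Prr33 had 3.335 and 3.35-fold, with a −log10 q of 1.37. The summit of the CTCF peak at Npffr2 lay 1.03 kb from its start site, with the edge of the peak inside 1 kb. Socs3 had 5.92, 9.10 and 13.1 CPM in fed, 1.73, 2.43, 2.54 and 2.75 CPM in fasted and 23.2, 30.8, 35.5 and 36.0 CPM in leptin libraries, with no overlap between states. Its change was −1.98 with fasting (SE 0.25, edgeR FDR 0.0018) and 3.73 with leptin (SE 0.25, edgeR FDR 3.7e-05), whereas the ATAC peak at its promoter, which held the 4.99-fold CTCF peak chr11:117969057-117969571, had 60.7 and 73.7, 57.2 and 77.1, and 67.8 and 58.3 CPM in fed, fasted and leptin libraries. Of the other falls, Vit lost its call under 1, Pik3r5 and Prr33 each under 4 and Npffr2 under 6 of 15 alternatives.

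In leptin against fasted mice, 11 of the 721 genes were higher (1.53%), where 1.19% of all genes tested were higher, and 9 were lower (1.25%), where 0.605% of all were lower. Library size alone gave 7 higher and 3 lower, and the replicate block 17 higher and 15 lower. After Socs3, the largest increases were in Arhgap28, Etv6, an ETS-family repressor gene, Serpina3n and Ikzf4, an Ikaros-family gene (log2 0.93 to 1.87). Etv6 had 11.6, 12.1, 13.8 and 15.8 CPM in fasted and 34.6, 34.7, 35.5 and 43.3 CPM in leptin libraries. Serpina3n lost its call under 9 of 15 alternatives, library size alone among them, and Ikzf4 under 8. After Fgf7, the largest decreases were in Pcdh20, Kcnj5, a potassium channel gene, Efnb2, an ephrin ligand gene, and Greb1l (log2 −0.95 to −0.67). Pcdh20 and Greb1l lost their calls with library size alone, and Kcnj5 under 5 alternatives. Efnb2 had 132, 146, 155 and 163 CPM in fasted and 83.9, 84.7, 96.4 and 99.4 CPM in leptin libraries (edgeR FDR 0.0012). The promoter CTCF peaks of Arhgap28, Etv6 and Greb1l were weak, at 2.43 to 2.51-fold and a −log10 q of 0.371. That of Ikzf4 had 2.86-fold and a −log10 q of 0.491. Those of Serpina3n, Pcdh20, Kcnj5 and Efnb2 were stronger, at 3.26 to 7.33-fold.

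No gene of the CTCF and cohesin machinery passed the RNA test. All 19 of the list had an AgRP-only CTCF peak within 50 kb, 36 in all, of which 5 lay in ATAC peaks and 3 carried the CTCF core. Of the 18 genes tested, 0 were called with fasting and 0 with leptin by edgeR. Unadjusted p was under 0.05 for 2 in each comparison, and DESeq2 called 0 in each. Ctcf itself had 55.0 ± 0.269 CPM in fed (SD, n = 3), 55.3 ± 4.70 CPM in fasted (n = 4) and 57.8 ± 6.90 CPM in leptin libraries (n = 4). Rad21, a cohesin subunit gene, had the largest difference with leptin (log2 −0.31, edgeR FDR 0.068). In the sorted comparison, the ATAC peak with an AgRP-only CTCF peak in an intron 7.93 kb from a Rad21 start site (chr15:51983657-51984207) had 2.59 and 3.20 CPM in AgRP-negative and 14.9 and 22.6 CPM in AgRP-positive libraries (log2 2.70, edgeR FDR 9.8e-20).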

How the data were processed

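CTCF CUT&RUN peak lists, ATAC-seq and RNA-seq tables were used, on build mm10 (GRCm38). The deposited narrowPeak lists give each peak's fold enrichment (a ratio) and −log10 p and q from MACS2, 1 list per library. Their calling settings, control and read depth were not given in the sources used here. The deposited ATAC and RNA tables hold read counts that the authors made per peak and per gene, without normalization. The deposited list called with SEACR, matched to the IRF3 sample as the only one of its kind, holds a signal per region, of which only positions were used. The submitters' processing notes name HISAT2, featureCounts, Bowtie2, MACS2, bedtools and SEACR.

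Regions were intersected with bedtools 2.31.1, with 1 shared base as overlap. Counts were tested with edgeR 4.0.16 in R 4.3.3 (TMM scaling, quasi-likelihood test) on features with a mean over 1 CPM, over all features and all libraries of a table, with Benjamini-Hochberg adjustment. A feature was called where FDR was under 0.05 and its log2 fold change lay beyond 0.5 in either direction. DESeq2 1.42.0, scaling by library size alone, no filter, the replicate number as a block and leaving out each library were alternatives. Python 3.11.15 with numpy 2.4.6, pandas 2.3.3, scipy 1.17.1 and matplotlib 3.10.9 did the rest. Exact binomial (Clopper-Pearson) intervals cover counting error only. The fits were tested on simulated data.

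Samples were grouped by their labels. Each ATAC and RNA replicate was a pool of 4 mice, and p-values measure the spread between these pools. Deviations of RNA libraries with the same number correlated at 0.535 to 0.814 over 10 pairs, so the numbers were taken to pair them. The main RNA tests fitted the state alone, so the SE and FDR of the named genes do not use this pairing. The replicate block was among the alternatives under which calls were checked. ATAC libraries with the same number did not (−0.00262 to 0.164 over 6 pairs of the 3 states). The sorted populations came from shared pools, but that equal numbers mark the same pool was not given in the sources used here, and their same-number correlation was 0.0989. ATAC libraries held 8263234 to 17190963 counts, and RNA libraries 25581041 to 54511107.

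Named regions were the 5 called ATAC peaks with the largest change each way per comparison whose libraries did not overlap, the 10 CTCF peaks of highest enrichment and the peak nearest each list gene within 50 kb. Named genes were the 5 called promoter genes with the largest change each way and the CTCF and cohesin genes. The regions, lists and tests were chosen with earlier results of these data known. POMC and arcuate RNA libraries and the tables of log2 CPM values were not used here. The result of 1 list gene is not reported here.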

Additional observations from a re-analysis of the deposited data

Results flagged for a closer look

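Of the 36 groups of RNA libraries examined for a single library far from the rest, a check by which chance alone marks about 1 in 20, 2 were marked. Etv6 had 43.3 CPM in its highest leptin library, apart from the other 3. Pik3r5 had 0.812 CPM in its highest fasted library, apart from the other 3. In data outside the comparisons above, 764 AgRP-only CTCF peaks (2.55%) overlapped a peak of an IRF3 CUT&RUN list, against 6935 shared CTCF peaks (33.8%). The list was taken as that of AgRP neurons of fed IRF3-2D mice, which express a constitutively active IRF3 in these neurons, because it was the only list of its kind, although its name does not mention IRF3. It has 1 library and does not show IRF3 binding in unmodified neurons.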

How the results depend on the processing

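The number of AgRP-only CTCF peaks was 6170 in the upper 50% of fold enrichment and 11446 at q under 0.05, the latter a choice made after seeing the data. The share in ATAC peaks was 26.5% by summit, 64.2% in the upper 50% of enrichment, 23.1% with the peaks of the sorted table, 27.6% with no cerebellum peak within 1 kb and 46.3% at q under 0.05. The share with the CTCF core was 1.78% within 50 bases of the summit, 6.68% in the upper 50% and 4.88% at q under 0.05. At q under 0.05, which keeps fewer peaks, the counts of called ATAC peaks were 509 opened and 917 closed (fasted against fed), 62 opened (leptin against fasted), 570 opened and 1440 closed (leptin against fed) and 227 lower in AgRP-positive nuclei.

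Leaving out 1 library gave 532 to 954 opened and 657 to 1713 closed for fasted against fed, 4 to 186 and 0 to 223 for leptin against fasted, and 548 to 1040 and 1151 to 2383 for leptin against fed. It gave 238 to 328 lower in AgRP-positive nuclei. For RNA it gave 17 to 34 higher and 7 to 25 lower with fasting. A group left with 1 library is assumed to vary like the others. Closed regions for leptin against fasted numbered 112 without the CPM filter, and lower regions in AgRP-positive nuclei 256 with DESeq2 and 250 with library size alone. RNA counts with library size alone were 13 higher with fasting, and 7 higher and 3 lower with leptin. The cause of these shifts was not tested.

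With the replicate block, leptin against fasted gave 175 opened and 248 closed, which turns the order of the main counts (102 and 64), while the numbers did not pair the ATAC libraries. For RNA, whose numbers did, the block gave 27 lower with fasting, and 17 higher and 15 lower with leptin. For the sorted comparison the block gave 3730 higher and 433 lower. With the block no other count moved by over 1.5 times. With 2 ATAC libraries a group, small changes can be missed. In simulated data, 2-fold changes were recovered at 9% of changed peaks for fasted against fed and 30% for the sorted comparison. The simulation changed only 100 peaks by this much and gave all peaks 1 common spread. In the data far more peaks were called (19405 opened with fasting), which makes the adjusted threshold less strict. These shares are therefore not the recovery in the data.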
